A study of Mus musculus with 2 samples.

Results

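Haemoglobin genes and Alas2 were read on 8 probe sets of the array, out of 41345 in all, and made up 8 of the 23981 genes that the platform names. They are the probe sets whose platform gene symbol field contains Hba-a1, Hba-a2, Hbb-bs, Hbb-bt, Hbb-b1, Hbb-b2, Hba-x, Hbb-y or Alas2, fields with several symbols included. Of these 9 genes 8 were found, and Hbb-bt was in no symbol field used here. Only Hba-x and Hbb-y had a probe set naming 1 gene, and the other 6 probe sets named several.

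The study used spleen cells of Fx-/- mice, which lack an enzyme that makes GDP-fucose from mannose and so depend on supplied fucose. Both groups carry this genotype. The on-fucose group was fucose-treated, the off-fucose group had no fucose treatment, and each was 1 array of RNA from spleen cells labelled cDC1, the type 1 conventional dendritic cells. Per the protocols in the labels, cells carrying B220 or CD11b were removed with beads and cells carrying CD11c were then selected. The labels used here do not give the age or sex of the mice, or how many contributed to each array.

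Adult haemoglobin is a tetramer of alpha and beta chains, each holding a heme. Red cell precursors make both chains and the heme together, with Alas2, the erythroid form of the first enzyme of heme synthesis, setting the pace. Mice have nearly identical alpha genes, Hba-a1 and Hba-a2, and a beta pair that differs by strain, Hbb-bs and Hbb-bt in one haplotype and Hbb-b1 and Hbb-b2 in another. Hba-x and Hbb-y encode the zeta and epsilon chains of embryonic red cells.

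The bases before the start of the members' genes are shown so that adult genes, embryonic genes and Alas2 can be set side by side. Hba-a1 and Hbb-bs are adult genes named on shared probe sets past 2-fold, and the embryonic genes and Alas2 stayed within it. Not every Hbb-bs probe set passed it. The 3, which also name Hbb-b1 and Hbb-b2, had log2 differences from 0.18 to 2.04. Whether these bases bear on the differences was not tested. Promoters were found in RefSeq (GRCm38.p6) for 7 of the 9 genes, and Hbb-b1 and Hbb-b2 had no entry. Each line gives the 250 bases before the start, 5′ to 3′ on the gene's strand, with capitals marking 4 motifs searched on both strands. The GATA site was read as AGATAA, or with other ends as AGATAG, as well as TGATAA and also TGATAG. The others were the CACCC box, the CCAAT box and the TATAA box.
Hba-a1, chr11:32283422-32283671, + strand: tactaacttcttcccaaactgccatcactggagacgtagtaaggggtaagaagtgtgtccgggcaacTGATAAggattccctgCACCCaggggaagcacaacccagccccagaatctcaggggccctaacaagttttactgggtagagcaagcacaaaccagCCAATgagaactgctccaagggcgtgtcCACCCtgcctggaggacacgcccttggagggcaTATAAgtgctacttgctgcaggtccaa
Hbb-bs, chr7:103827929-103828178, - strand: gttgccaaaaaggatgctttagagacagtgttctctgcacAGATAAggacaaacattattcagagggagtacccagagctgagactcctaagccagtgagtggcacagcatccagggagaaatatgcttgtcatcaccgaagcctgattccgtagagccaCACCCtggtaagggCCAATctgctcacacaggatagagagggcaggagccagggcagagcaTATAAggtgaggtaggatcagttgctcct
Hba-x, chr11:32276350-32276599, + strand: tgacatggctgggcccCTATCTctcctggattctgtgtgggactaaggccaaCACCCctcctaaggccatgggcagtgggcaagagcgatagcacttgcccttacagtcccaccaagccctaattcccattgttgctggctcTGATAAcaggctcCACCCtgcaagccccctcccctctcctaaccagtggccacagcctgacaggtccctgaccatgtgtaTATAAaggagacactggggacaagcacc
Hbb-y, chr7:103853208-103853457, - strand: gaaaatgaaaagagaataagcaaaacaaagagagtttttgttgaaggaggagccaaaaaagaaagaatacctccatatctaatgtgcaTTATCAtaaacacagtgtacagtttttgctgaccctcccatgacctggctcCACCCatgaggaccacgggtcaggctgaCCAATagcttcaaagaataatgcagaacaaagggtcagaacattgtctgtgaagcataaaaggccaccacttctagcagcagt
Alas2, chrX:150547167-150547416, + strand: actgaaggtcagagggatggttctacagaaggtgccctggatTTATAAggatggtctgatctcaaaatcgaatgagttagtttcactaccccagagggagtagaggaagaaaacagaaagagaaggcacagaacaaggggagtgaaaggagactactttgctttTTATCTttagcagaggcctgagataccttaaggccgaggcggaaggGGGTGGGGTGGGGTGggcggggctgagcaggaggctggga

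The adult alpha promoters could not be told apart over most of their length. The Hba-a1 and Hba-a2 windows shared an unbroken run of 247 identical bases, so the Hba-a2 window is not shown. Hbb-bs and Hbb-bt had 185 identical bases of 239 aligned (77.4%), with a longest shared run of 14.

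All 4 motifs were found in the windows of Hba-a1, Hba-a2 and Hbb-bs. That combination was present in 355 of 32851 windows of this length in the table (1.08%), whereas single motifs were common, at 26.5% for the GATA sites, 52% for CACCC, 33.8% for CCAAT and 22.8% for TATAA. In Hba-a1 the TATAA match began 27 bases before the start, the CCAAT match 88, the nearer CACCC match 60 and the GATA match 183. In Hbb-bs the same matches began at 29, 76, 90 and 210 bases. The window of Hbb-bt, the adult beta gene named in no symbol field used here, had no GATA match, but 3 CACCC, 3 CCAAT and 2 TATAA matches. The Hba-x window had no CCAAT match and the Hbb-y window no TATAA match. Alas2 had no CCAAT match, 3 CACCC matches on the opposite strand and a pair of overlapping TATAA matches, on both strands, that began 207 and 208 bases before the start. A match describes these letters and does not show that a factor binds there.

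The adult alpha genes had higher values off fucose on both of their probe sets. Probe set 17248276, which names Hba-a2 and Hba-a1, went from an intensity of 165.3 on fucose to 864.4 off fucose. These are 7.37 and 9.76 on the log2 scale, a difference of 2.39 or 5.23-fold. Its difference ranked 71st from the top among all probe sets.

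The second alpha probe set, 17248263, names the same genes and had an intensity of 14.4 with fucose and 40.9 without. Its log2 values were 3.84 and 5.35, a difference of 1.51 or 2.85-fold, which was 0.91 and so below 2-fold with 16 units added to each intensity. The signals of Hba-a1 and Hba-a2 cannot be separated on either probe set, so the values belong to the pair.

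The adult beta genes were read on 3 probe sets that name Hbb-b1, Hbb-b2 and Hbb-bs in different orders, and these differed among themselves. Probe set 17494221 went from an intensity of 138.8 on fucose to 569.3 off fucose. On the log2 scale it had 7.12 and 9.15, a difference of 2.04 or 4.10-fold that ranked 125th from the top. Probe set 17481232 had intensities of 6.14 and 11.7, log2 values of 2.62 and 3.55 and a difference of 0.93, just below 2-fold. Probe set 17494228 had 5.84 and 6.62, log2 values of 2.55 and 2.73 and a difference of 0.18.

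The highest and lowest beta differences lay 1.85 apart and the alpha differences 0.88 apart. The lowest beta difference came from 17494228, which stayed near the array medians of 2.81 and 2.82 on both arrays. No sequence or position of the probes was used here, so which part of the genes each probe set reads is not known.

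The embryonic globin genes had low values on both arrays. Hba-x, on probe set 17248255, had intensities of 6.31 on fucose and 5.86 off fucose, a log2 difference of -0.11 that became 0.19 with differences centred on T cell genes. Hbb-y, on probe set 17494246, had 5.47 and 6.01, a log2 difference of 0.14. For comparison, the median intensity of all probe sets was 6.99 on fucose and 7.04 off fucose, and a gene with little RNA and a probe set that responds poorly look alike at this level.

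Alas2 shared its probe set with Apex2, a DNA repair gene that lies next to it. Its intensity on probe set 17538575 was 7.30 on fucose and 10.3 off fucose. The log2 values were 2.87 and 3.37, a difference of 0.50 or 1.41-fold. Apex2 also had a probe set of its own, 17545306, with log2 values of 3.37 and 3.30 (-0.07). Alas2 is X-linked. Xist, the X-inactivation RNA, had 8.26 on fucose and 2.82 off fucose on probe set 17543785. This was the lowest difference (-5.44) among the 22180 genes with a probe set of their own. The arrays thus also differed in this sex-linked RNA. With 1 array per group, that cannot be separated from the fucose treatment for any gene. The part of a sex difference in the Alas2 value and in the other differences was not tested.

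**Figure D1:**
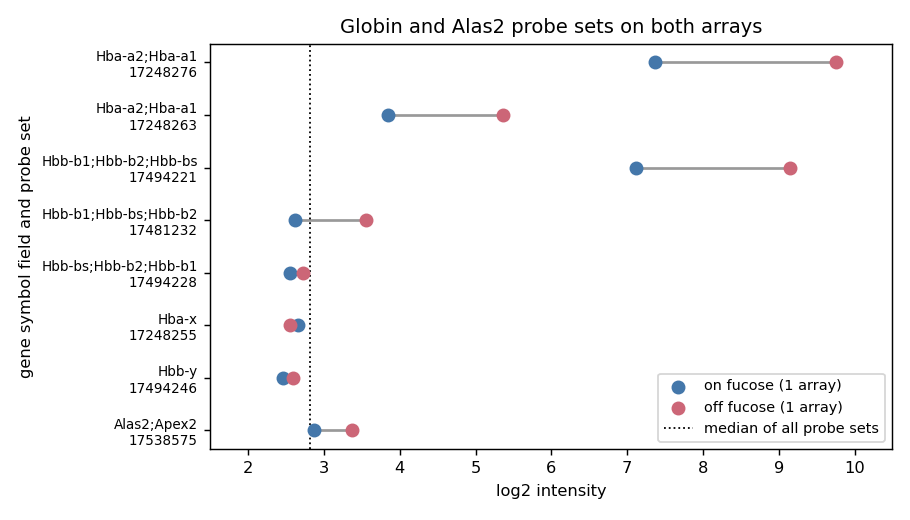
Log2 intensity (x axis) of the 8 globin and Alas2 probe sets (y axis) on the on-fucose array (blue) and the off-fucose array (red), 1 array each, with a dotted line at the median of all probe sets. Both Hba-a probe sets and Hbb probe set 17494221 lie at least 2-fold higher off fucose, and 5 probe sets stay below a log2 intensity of 4 on both arrays.

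Of the 8 probe sets, 3 were at least 2-fold higher off fucose (37.5%) and none was 2-fold lower. Over all 41345 probe sets, 1.52% passed 2-fold upwards and 1.55% downwards, or 628 and 639 probe sets. These became 1265 and 360 when differences were centred on the T cell list, which adds 0.29 to each and turns every difference between -0.29 and 0 positive. The members' median difference was 0.72, beside 0.00 for all probe sets. Of the 8, 5 reached the median of mean log2 intensity over all probe sets (2.80), and 17481232 did so only through its off-fucose value. With 1 array per group there is no replicate check and no test. In bulk RNA such as this, more cells of a type and more RNA per cell cannot be told apart.

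The robust SD of the differences among probe sets of like intensity gives a yardstick for the members. It was 0.23 for the intensity range of 17248276 and 17494221, whose differences lay above 99.95% and 99.9% of the 2068 probe sets in that range. For 17248263 it was 0.40, and 97.3% of its range lay below. The Alas2 probe set lay above 88.7% of its range, Hbb-y above 70.9% and Hba-x above 26.8%. These shares mix technical and biological differences between the arrays.

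**Figure D2:**
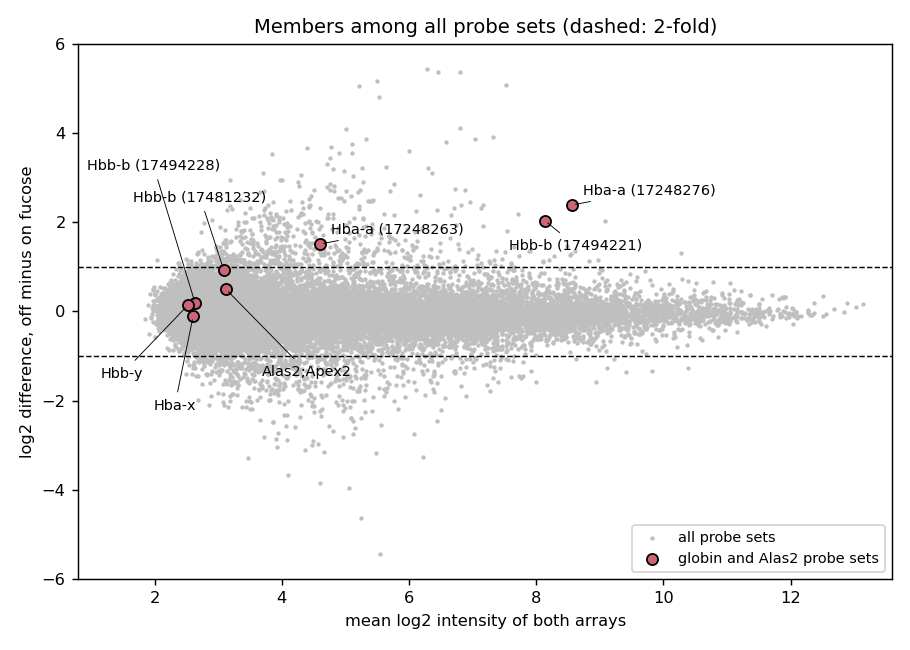
Log2 difference (off minus on fucose, y axis) against mean log2 intensity (x axis) for all 41345 probe sets (grey) and the 8 globin and Alas2 probe sets (red), with dashed lines at 2-fold. The bright Hba-a and Hbb probe sets had 2.39 and 2.04, above 99.95% and 99.9% of the 2068 probe sets in their intensity range. Car1, a bright gene among the grey points, had 2.02. Hba-x, Hbb-y and Alas2 lie inside the dim cloud.

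No gene flanking the globin clusters was 2-fold apart. Over all genes the shares were 1.2% higher and 0.257% lower, so a count of none here is near them. In RefSeq order, the 6 protein-coding genes on each side of the alpha cluster were read on 12 probe sets, whose differences ran from -0.82 in Ubtd2 to 0.26 in Efcab9, with a median of -0.11. Nprl3, whose introns hold the distal enhancers of the alpha genes, had 4.13 on fucose and 3.91 off fucose (-0.21), and 0.14 on a probe set it shares with Mpg. The 12 genes flanking the beta cluster were all olfactory receptors, odour receptors of the nose. Their differences ran from -0.31 in Olfr633 to 0.48 in Olfr66, with a median of 0.07. Their log2 values, 2.11 to 2.75 on fucose and 2.28 to 2.80 off fucose, lay below the array medians of 2.81 and 2.82. The neighbours were chosen after the members' values were seen.

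Other globin genes inside and outside the clusters stayed within 2-fold, beside 1.2% of all genes higher and 0.257% lower. The list of other globins held 10 genes, of which 8 had a probe set of their own, and all 8 lay below a log2 intensity of 4 on both arrays. Their median difference was -0.02, inside the range that turns positive with T cell centring, beside 0.00 over the 22180 genes with a probe set of their own. The theta globin genes differed in direction, with Hbq1a going from 2.34 to 3.06 (0.72) and Hbq1b from 3.26 to 2.80 (-0.46). The embryonic beta-like genes Hbb-bh1 and Hbb-bh2 had 0.19 and -0.14, and the neuroglobin gene Ngb had -0.51.

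**Figure D3:**
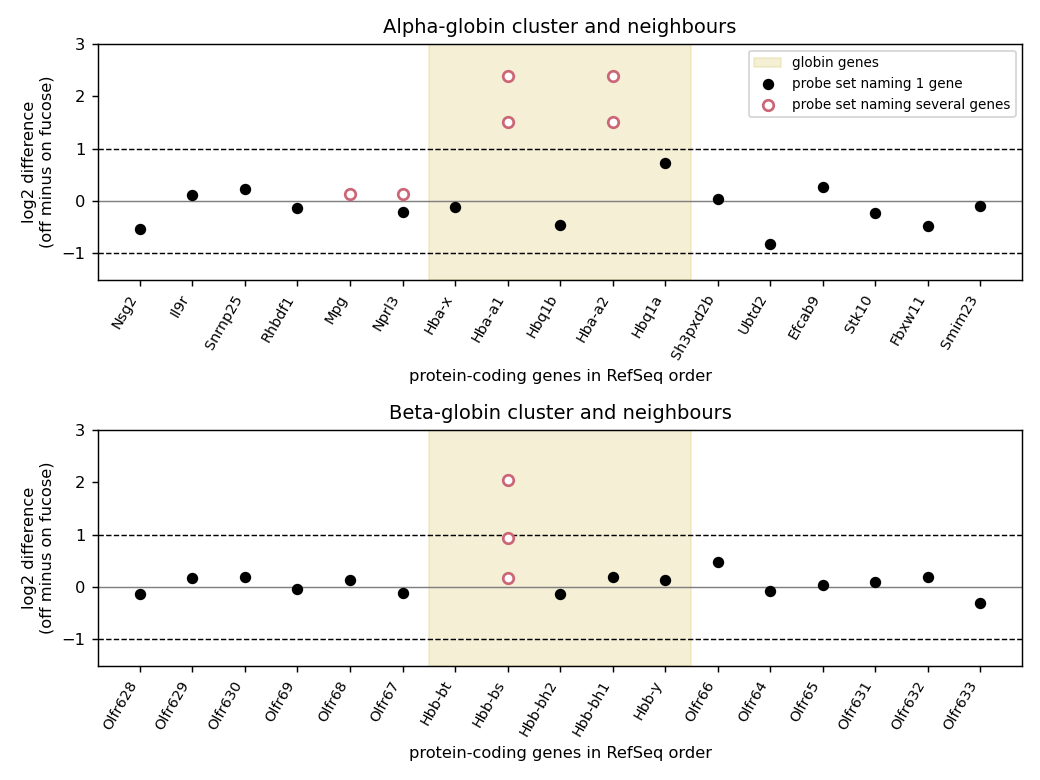
Log2 difference (off minus on fucose, y axis) of each probe set, by gene in RefSeq order (x axis), for the alpha and beta clusters (shaded) and 6 protein-coding genes on each side. Open circles are probe sets that name several genes and are drawn at each named gene on the plot. The only points past 2-fold (dashed) belong to the alpha pair and to 1 of the 3 beta probe sets. Hbb-bt has no point because no symbol field names it.

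Several genes of heme synthesis and handling had higher values off fucose. Of 23 genes in this list 21 were measured on their own probe sets, 6 were at least 2-fold higher and none lower, beside 1.2% of all genes higher and 0.257% lower. The list's median was 0.54. Alad, the second enzyme of the pathway, went from 5.77 to 7.71 on the log2 scale, which is 3.82-fold. Cpox, which oxidises coproporphyrinogen, went from 5.37 to 6.74 (2.58-fold), and Fech, which inserts the iron, from 6.28 to 7.41 (2.19-fold).

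The mitochondrial transporter gene Abcb10 had the widest difference of the list, from 3.16 to 5.70 (5.79-fold). Blvrb, a biliverdin reductase of red cells, went from 3.43 to 5.43, and the heme-binding protein gene Hebp1 had a difference of 1.25. Alas1, the form of the first enzyme used outside the erythroid lineage, went from 3.31 to 3.67 (0.36). Hmox1, the heme oxygenase that breaks heme down, had 2.96 and 3.04. Values for other steps were 0.63 in Urod, 0.10 in Ppox and -0.20 in Uros.

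Of 12 measured genes for iron supply, 2 were at least 2-fold higher and none lower, beside 1.2% and 0.257% of all genes. The list's median was 0.04. Slc25a37, which encodes the mitochondrial iron importer mitoferrin, went from 5.82 to 7.17 (2.55-fold). Tfrc, the transferrin receptor, went from 3.34 to 4.59 (2.38-fold), and its relative Tfr2 had 0.95. The ferritin heavy chain gene Fth1 had 10.48 and 10.69 (0.21), and Steap3, an endosomal iron reductase, had 0.17.

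Among regulators and partners of the globin genes, 2 of 20 were at least 2-fold higher and none lower, beside 1.2% and 0.257% of all genes. Positive differences were found for 18 of the 20, beside 10566 of 22180 genes, and the list's median was 0.28. Klf1, the factor that binds CACCC sites of the adult beta gene, went from 3.56 to 5.57 (4.04-fold). Gfi1b, a repressor needed for red cell and platelet precursors, went from 3.65 to 6.87 (9.36-fold). Gata1, the factor that binds GATA sites in red cell genes, had low values, 2.70 and 3.18 (0.48). Nfe2, which acts at the globin enhancers, had 0.88, Mafg, its partner, 0.81 and Bcl11a, a repressor of embryonic globin genes, 0.82. Eif2ak1, the kinase that slows globin translation when heme is short, had 6.21 and 6.36 (0.15). Ahsp, the alpha-globin chaperone gene, was not analysed here.

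Red cell membrane and enzyme genes had the most 2-fold differences of the companion lists of red cell genes. In the membrane list, 9 of 17 genes were at least 2-fold higher and none lower, beside 1.2% and 0.257% of all genes. The list's median was 1.06. Among the 9, Ank1 had 1.32 but -0.22 on another probe set, and the mean of a gene's probe sets gave a count of 8. The water channel gene Aqp1 had 3.87, the anion exchanger gene Slc4a1 3.76, the blood group gene Rhd 3.59, its partner Rhag 2.72 and Ermap 2.69. In the list of red cell enzymes and late erythroid genes, 8 of 20 were at least 2-fold higher and none lower, beside the same shares. Its median was 0.72. Carbonic anhydrase genes Car2 and Car1 had 2.91 and 2.02, Tspan33 2.48 and Mfsd2b, a sphingosine phosphate exporter of red cells, 1.85. Blvrb is in this list too.

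Likeness to a member was measured over genes with a probe set naming 1 gene, so the other members on shared probe sets, the adult beta genes among them, were left out. Among these genes Car1 was nearest to the bright alpha probe set. Over the pair of log2 values, Car1 (8.07 and 10.09) lay 0.78 from it, followed by Sik1 at 0.78, Atpif1 at 0.90, Ybx3 at 0.97 and H2-Aa at 1.02, and no gene lay within 0.2. Around the Alas2 probe set 202 genes lay within 0.2, the nearest being Tbxas1, Chdh, Lratd1, Arhgap19 and Nipa1, at distances of 0.018 to 0.039. This likeness rests on 2 arrays and on the response of each probe set.

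**Figure D4:**
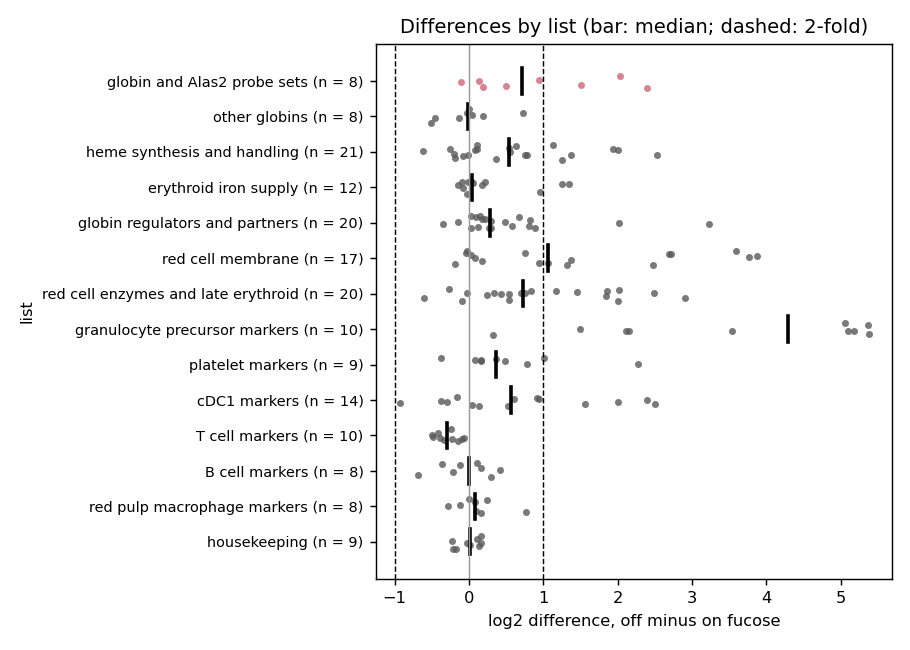
Log2 difference (off minus on fucose, x axis) of each globin and Alas2 probe set (red) and of each gene in the companion and marker lists (grey, y axis), with the list median as a bar and 2-fold as dashed lines. The red cell membrane list has a median of 1.06, the other globins -0.02 and the T cell markers -0.29.

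Markers of other cell types differed between the arrays alongside the globin genes. Their counts stand beside 1.2% of all genes at least 2-fold higher and 0.257% lower. All 10 granulocyte precursor markers differed in the positive direction, 9 of them by 2-fold or more, with median log2 intensities of 2.90 on fucose and 6.68 off fucose and summed intensities of 6.78 and 11.54 on the log2 scale, and Elane, a granule protease gene, had the widest difference at 5.38. Platelet markers had 2 of 9 genes at least 2-fold higher, Ppbp at 2.27 and Pf4 at 1.01. Of 14 measured cDC1 markers 4 were at least 2-fold higher, Irf8 at 2.50, Naaa at 2.39, Tlr3 at 2.01 and Wdfy4 at 1.56. Irf8 had only 0.21 on another, dim probe set, with 2.81 on fucose and 3.02 off fucose. Flt3 had 0.94. The cDC1 list had medians of 4.23 and 5.57. Xcr1, a receptor that marks these cells, had 2.90 and 3.43, and Itgax, which encodes CD11c, 3.83 and 3.86. Of the 14 cDC1 markers, 10 had positive differences. The other 4 were negative, with Ly75 at -0.93, Itgae at -0.38, Id2 at -0.30 and Cd8a at -0.16. All 10 T cell markers were lower by at most 0.50, with medians of 10.10 and 9.66. Red pulp macrophages clear old red cells, and 7 of their 8 markers lay below 4 on both arrays, Spic at 2.49 on each. The remaining marker, Vsir, had 8.94 on fucose and 8.66 off fucose. Slc40a1 had the widest difference of that list, 0.77. B cell markers had a median difference of -0.01 and housekeeping genes 0.02. The part of any of these cells in the globin values was not tested.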

How the data were processed

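The values deposited by the authors were linear intensities of each probe set on each array, summarised with RMA, per the submitters' processing notes. Its settings and the genome build are not given in the sources used here. Per the labels, the WT Pico kit was used on 9 ng of total RNA. The intensities ran from 2.74 to 9512, and log2 was taken of each with no pseudocount. Precision is limited by the number of arrays.

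Gene symbols came from the platform annotation, in which 23521 probe sets had 1 symbol, 1814 several and 16010 none. Members kept every probe set and its full field. In the companion lists, the probe set with the highest mean stood for a gene, and only probe sets with 1 symbol were used. Differences are the off-fucose minus the on-fucose log2 value, and counts use 2-fold. With 1 array per group no test was run. Like intensity means the same of 20 equal bins by mean. The code was tested on simulated data (pandas 2.3.3, statsmodels 0.14.6, Biopython 1.88).

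The members, lists and rules were chosen with earlier results of these data known. The text names all members, up to 5 genes per list with the largest differences, a fixed set (Alas1, Klf1, Gata1, Ahsp, Tfrc, Slc4a1, Fech, Eif2ak1, Bcl11a, Hmox1 and Xist), and the 5 genes nearest to each of 2 member probe sets. Genes of heme synthesis such as Urod, Ppox and Uros, and the neighbours of the clusters, were added after their values were seen. Others named outside these rules include Xcr1, Itgax, Ly75, Itgae, Id2 and Cd8a of the cDC1 list, and Spic, Ftl1 and Bnip3l. Alternatives were quantile normalisation, loess (span 0.3), median centring, centring on T cell genes, 16 units added before log2, thresholds of 1.5-fold and 3-fold, an expression filter and the mean of a gene's probe sets.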

Additional observations from a re-analysis of the deposited data

How the results depend on the processing

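No paired analysis was possible because there is 1 array per group, and none could be left out. The count of 3 member probe sets at least 2-fold higher was also 3 under quantile normalisation and loess. Median centring could not change it, because the median difference of all probe sets was already 0.00. Nor could leaving out the field that names Apex2, which was below 2-fold. The count was 4 with T cell centring and at 1.5-fold, and 2 at 3-fold and with 16 units added. With T cell centring, which shifts every difference by the same amount, 17248276 had 2.68, 17494221 had 2.33, 1 other globin and 5 regulators were 2-fold higher, and Hba-x turned to 0.19. With 16 units added, which shrinks dim differences, 17248263 had 0.91. The genes 2-fold higher were then 6 membrane genes, 5 red cell enzyme genes, 4 heme genes and 1 iron gene. At 1.5-fold, 1 other globin and 6 regulators were higher, and 1 heme gene and 1 enzyme list gene were lower. At 3-fold, 6 membrane, 6 enzyme, 3 heme and 0 iron genes were higher. Without these changes the membrane, enzyme and heme counts were 9, 8 and 6. They were 11, 11 and 9 at 1.5-fold, and 11, 10 and 8 with T cell centring. For dim members, the signal over background limits what can be seen.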

Other observations

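Ferritin light chain, which stores iron with the Fth1 product, was another gene read only on shared probe sets. Ftl1 appeared on 6 probe sets that also name its pseudogenes, and none was 2-fold apart. Their differences ran from -0.42 to 0.59, with off-fucose log2 values from 3.78 to 10.66, and 2 of them had identical values on each array. Bnip3l, which clears mitochondria from maturing red cells, was also shared with a pseudogene and had 8.98 on fucose and 9.02 off fucose (0.04).

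Many differences recurred to the last decimals. The size of the Alas2 probe set's difference, 0.500134, was found in 4 other probe sets within 1e-06, where the density of like sizes gives 0.053, and that of Hbb-y, 0.135846, in 16 others, where it gives 0.147. In all, 16719 probe sets (40.4%) shared the size of their nonzero difference with another to 6 decimals, and 875 had identical values on both arrays. The size of the Hba-x difference was found in 1 other, where the density gives 0.190. The sizes of the 5 differences of the adult alpha and beta probe sets were found in no other probe set. For these the density gives only 0.001 to 0.201 each, so finding none does not set them apart. Every density given here counts the probe set itself and any repeats of its size.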
